A study of Mus musculus with 4 samples.

Results

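The wild-type (WT) expression profile of sorted hair follicle stem cells was described from 2 of the 4 arrays of the study, the WT arrays of set 1 and set 2. Genes were ranked by the mean log2 intensity of these arrays, with 1 probe set per gene, which gave 12393 ranked genes. Each gene was placed in the top 10% of the ranking (high), near background, or in the middle between them. The profile was read through 752 measured genes on lists of keratins, adhesion genes, transcription factors, ligands, receptors, metabolic genes, cell division genes and markers of other cell types.

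The cells came from back skin of female WT mice of CD1/C57BL/6 background at about postnatal day 60 and were sorted on integrin α6, CD34 and YFP, a yellow fluorescent reporter. The other 2 arrays held cells of the same sex, strain, age and sort from mice with a conditional knockout (cKO) of Tbx1, a T-box transcription factor gene. The treatment label describes removal of hair with wax 48 h before the skin was taken for all 4 samples. A further label calls set 1, WT and cKO alike, quiescent and set 2 activated, and the labels do not settle this difference, so the sets are named by number. The labels name no Cre driver, no promoter behind YFP and no gate settings. Nothing says that the arrays came from separate animals, so the spread between them may be technical. The smallest p of an exact permutation test with 2 arrays a side is 0.333, and having 2 arrays limits how precise any level is.

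The bulge is the part of the resting hair follicle that holds its stem cells, which sit on a basement membrane and divide rarely until the follicle enters growth. Bulge cells are basal keratinocytes with added features of the niche, such as keratin 15, CD34, the WNT-amplifying receptor LGR5 and the transcription factors SOX9 and LHX2. Bone morphogenetic proteins (BMP) hold these cells at rest, and WNT signals from the hair germ and dermal papilla start growth.

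Levels are log2 intensities, and probe sets differ in how strongly they bind, so a rank is one of signal and not of transcript number. The ribosomal protein gene Rps6 read 8.99 and 9.25 on the WT arrays, while the other 17 measured genes of the ribosome list all lay in the high class. A gene was called near background below a log2 intensity of 5.38, which is percentile 40 of all probe sets, and high above 10.33. Over all genes, 10% were high, 54.4% were in the middle and 35.6% were near background. As a check of the lower limit, 21 of 23 measured genes of organs other than skin, such as liver, eye and testis, were near background, with a median of 3.59. The exceptions were the transthyretin gene Ttr at 7.30 and the insulin gene Ins2 at 5.86. Just inside the high class lay Gli2 at 10.37, Notch1 at 10.34 and Msmo1 at 10.34, and just outside lay Hk2 and Plin2, both at 10.31. Just above the lower limit lay Krt8 at 5.43 and Cldn4 at 5.40, and just below it Msx1 at 5.37 and Itga7 at 5.35. The array gives no detection call, so near background does not mean that a gene is not expressed.

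The WT arrays ranked genes alike. Across the 12393 genes, which are not independent replicates, Pearson's r was 0.990 and Spearman's rho 0.990, and 98.0% of genes lay within 2-fold of each other and 90.8% within 1.5-fold. Agreement within 2-fold held for 97.9% of high genes, 97.1% of middle genes and 99.5% of genes near background. The WT set 2 array stood apart from the other arrays all the same. It differed by more than 2-fold from WT set 1 in 245 genes, from cKO set 2 in 478 and from cKO set 1 in 628, whereas WT set 1 differed from the cKO arrays in 253 and 215 genes and the cKO arrays from each other in 109. The nuclear long noncoding RNA Malat1 read 12.35 on the WT set 2 array, 10.03 on WT set 1 and 9.80 and 10.56 on the cKO arrays. Levels that rest on this array are therefore given with the WT set 1 value beside them.

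**Figure D1:**
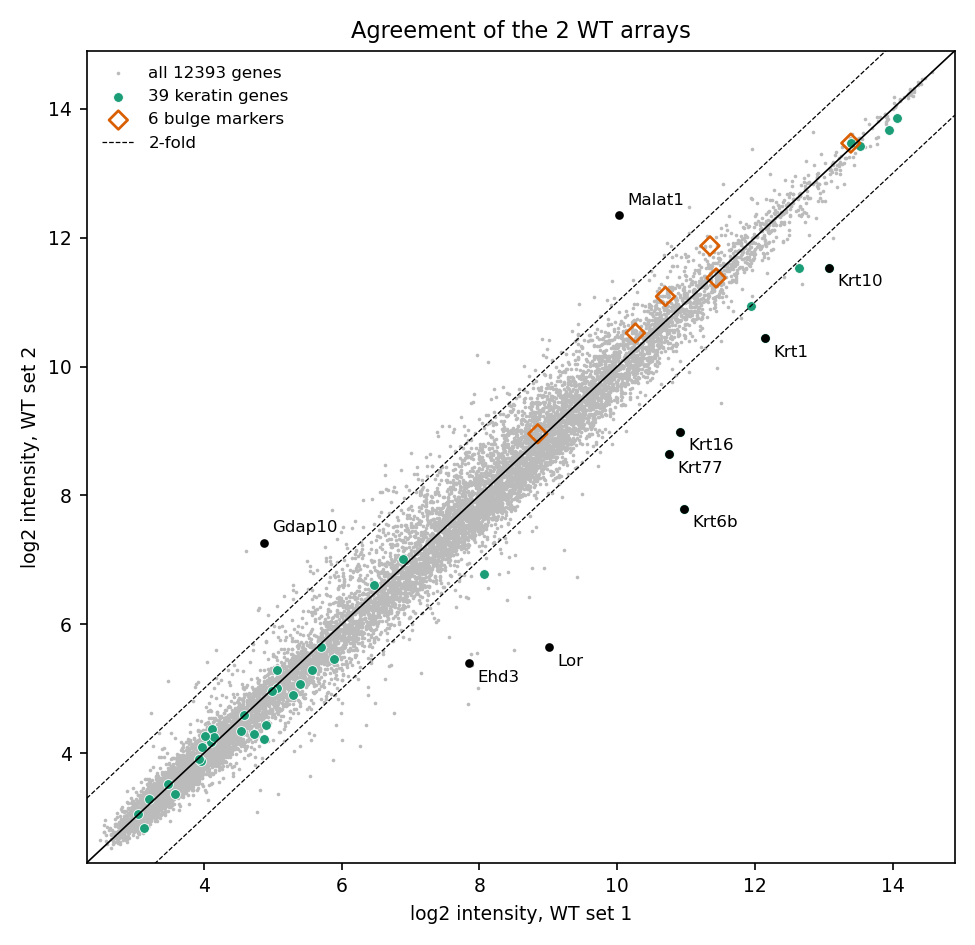
Log2 intensity of 12393 genes on the WT set 1 array (x axis) and the WT set 2 array (y axis). Grey points are genes, green points are the 39 keratin genes, open diamonds are the 6 bulge markers, black points are named genes, the solid line is equality and the dashed lines mark 2-fold. Bulge markers sit on or near the line, and Krt6b, Krt16, Krt77, Krt1, Krt10 and Lor lie below it by more than 2-fold.

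The markers of the bulge were present on both WT arrays, with 5 of 6 in the high class and 1 in the middle. Krt15, the type I keratin of the bulge, read 13.39 and 13.47 (13.43 ± 0.05, SD, n = 2) and took rank 66 of all genes. Itga6, the integrin α6 chain used in the sort, read 11.35 and 11.87, and Lhx2, a LIM homeobox factor of the niche, read 11.44 and 11.37. These values differed between the WT arrays by 0.53 on the log2 scale at most. Lgr5, a receptor for R-spondins, read 10.70 and 11.09, and Sox9, which keeps bulge identity, read 10.26 and 10.52, which puts its mean just inside the high class. Cd34, the sialomucin used in the sort, read 8.85 and 8.96, at percentile 75.5 of all genes. None of the 6 passed limma's test between cKO and WT, with adjusted p from 0.272 for Krt15, which read 13.93 and 13.94 in cKO, to 0.943 for Lgr5.

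Among markers of other cell types, only the suprabasal and sebaceous lists held genes of the high class on the WT arrays. In these sorted populations fewer cells of a type and less RNA per cell cannot be told apart. Over all genes 35.6% were near background. For immune cells, 13 of 17 genes were near background and the highest was H2-Ab1, a class II antigen presentation gene, at 6.31 and 5.58. The mast cell chymase gene Cma1 read 3.41 and 3.49. For fibroblasts, 6 of 10 were near background, among them the defining collagen genes Col1a1 (4.31 and 4.26) and Col3a1 (4.49 and 4.91) and the receptor gene Pdgfra (3.54 and 3.57), while Sparc (9.47 and 9.68) and Vim (8.93 and 8.80) lay in the middle. For fat cells, 6 of 7 were near background, with the adipokine gene Adipoq at 3.10 and 2.99. For melanocytes, 4 of 8 were near background, with the pigment enzyme genes Tyr at 3.79 and 3.99 and Dct at 6.07 and 6.41. The highest was Mitf, with a WT mean of 6.88. For muscle and nerve, 3 of 9 were near background, a share near that of all genes. The highest was the smooth muscle actin gene Acta2 at 7.57 and 6.76. Of 6 sebaceous gland genes, 1 was high, 3 were in the middle and 2 near background, with a summed linear intensity of 6796 and 4370 in WT and 7138 and 6904 in cKO. Krt79 was high at 11.94 and 10.94, and the desaturase gene Scd1 (10.55 and 10.02) and the lipid droplet gene Plin2 (10.32 and 10.31) lay just below the high limit. The melanocortin receptor gene Mc5r (3.97 and 3.62) and Pparg (4.34 and 4.11) were near background.

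Endothelial markers were split. Fabp4, a fatty acid carrier of capillaries and fat, read 10.13 and 10.42, the water channel gene Aqp1 read 9.07 and 8.24, the P-selectin gene Selp 8.17 and 8.17 and the fenestral gene Plvap 8.29 and 7.78. The defining genes Pecam1 (5.07 and 5.05), Kdr (4.97 and 4.92), Tek (5.01 and 4.97) and Tie1 (3.85 and 3.62) were near background. In all, 8 of 13 endothelial genes were in the middle class and 5 near background (38.5%, near the 35.6% of all genes). Their summed linear intensity was 2709 and 2576 on the WT arrays against 284 and 282 on the cKO arrays. Such a sum follows its strongest members, here above all Fabp4 (3.38 and 4.07 in cKO), and does not describe each gene of the list. Of the 4 probe sets of Fabp4, 2 were near background in WT.

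**Figure D2:**
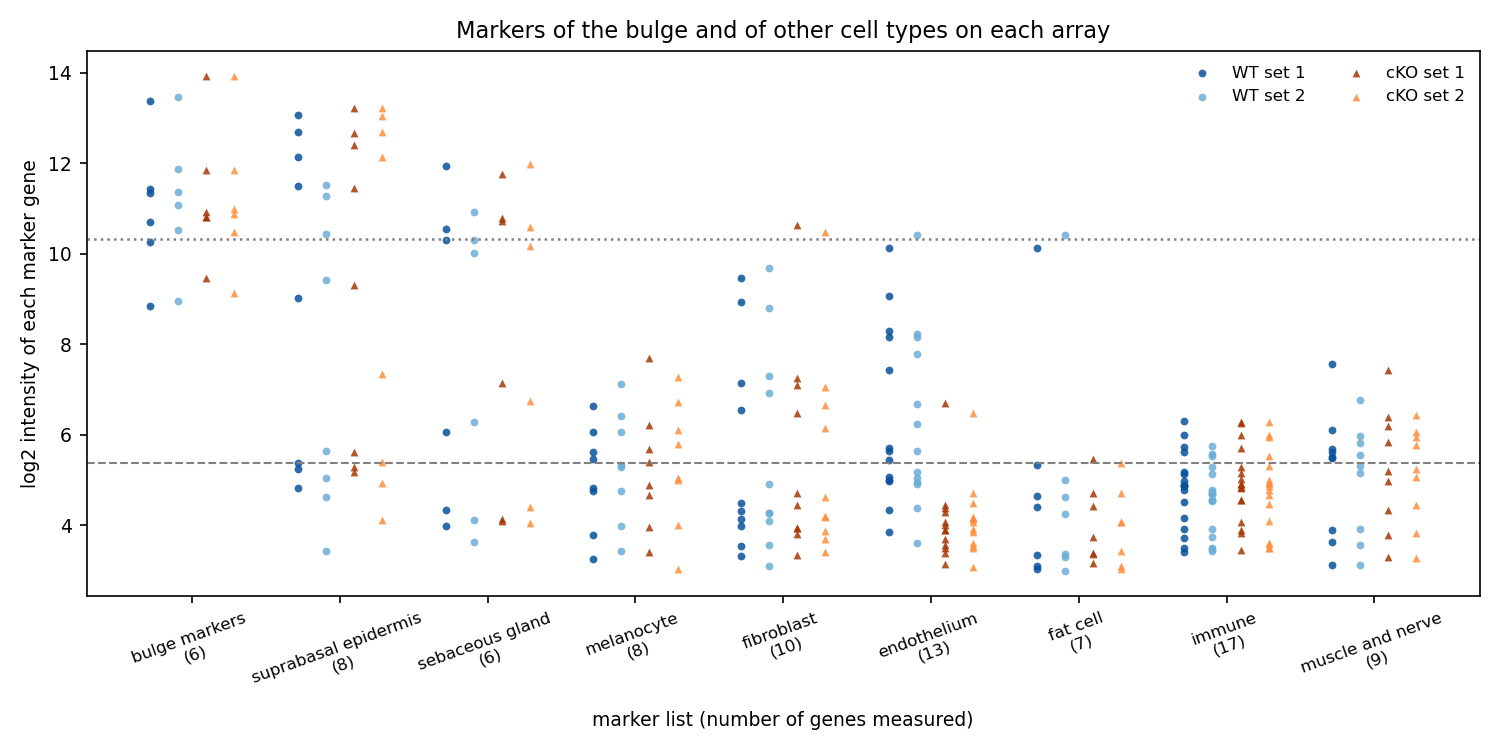
Log2 intensity (y axis) of each marker gene of the bulge and of 8 other cell types (x axis) on the 4 arrays; circles are WT, triangles cKO, the dashed line is the near-background limit and the dotted line the high limit. The 6 bulge markers lie above 8 on every array, suprabasal markers are lower on WT set 2 than on the other arrays, and several endothelial markers lie above the limit on the WT arrays and below it on the cKO arrays.

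Keratins divided into a few very strong genes and many near background. Of 39 measured keratins, 8 were high, 9 in the middle and 22 near background. The basal pair led: Krt14, the type I keratin of basal keratinocytes, read 14.07 and 13.86 (rank 32), and its partner Krt5 read 13.94 and 13.68 (rank 44). Krt17, a follicle and wound keratin, read 13.53 and 13.43, next to Krt15 in signal. Krt14, Krt16 and Krt17, and likewise Krt6a and Krt6b, are close in sequence, so probes of one can take up transcripts of another and their separate levels are uncertain.

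The remaining strong keratins belonged to suprabasal, outer root sheath and stressed keratinocytes, and all of them were lower on the WT set 2 array. Krt10, the type I keratin of suprabasal epidermis, read 13.07 on WT set 1 and 11.53 on WT set 2, and its partner Krt1 read 12.15 and 10.44. Krt6a, a keratin of the companion layer and of wounds, read 12.64 and 11.53, Krt6b read 10.96 and 7.80, and Krt16 read 10.91 and 8.99. Krt79, found in the upper follicle and gland duct, read 11.94 and 10.94, and Krt77, found in sweat ducts and in epidermis, read 10.75 and 8.65. On both cKO arrays Krt6b (11.27 and 11.45), Krt16 (11.04 and 11.72) and Krt1 (12.41 and 12.69) lay above the values of both WT arrays. Krt10 and Krt6a were also higher on both cKO arrays than on either WT array. From the WT set 1 array alone 11 keratins were high, and from WT set 2 alone 8.

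Keratins of the differentiated hair were weak on both WT arrays. Of the 12 hair shaft keratins 9 were near background, from Krt86 at 3.05 and 3.06 to Krt84 at 5.06 and 5.29, and the highest was Krt81 at 6.47 and 6.61. Of the 4 inner root sheath keratins, Krt27 read 6.89 and 7.02, and Krt71, Krt72 and Krt25 were near background. Keratins of simple epithelia read close to the limit or below it, with Krt8 at 5.57 and 5.28, Krt18 at 4.11 and 4.18 and Krt7 at 5.29 and 4.90. Krt19, which is known from the bulge, read 4.91 and 4.43 on its single probe set, and Krt75, the companion layer keratin, read 3.93 and 3.91. Of the 39 keratins 19 entered limma's test between cKO and WT, and none of these passed (7 of 8031 over all genes). With the set as a block, Krt7 alone passed (adjusted p = 0.035), at 7.11 and 6.01 in cKO.

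**Figure D3:**
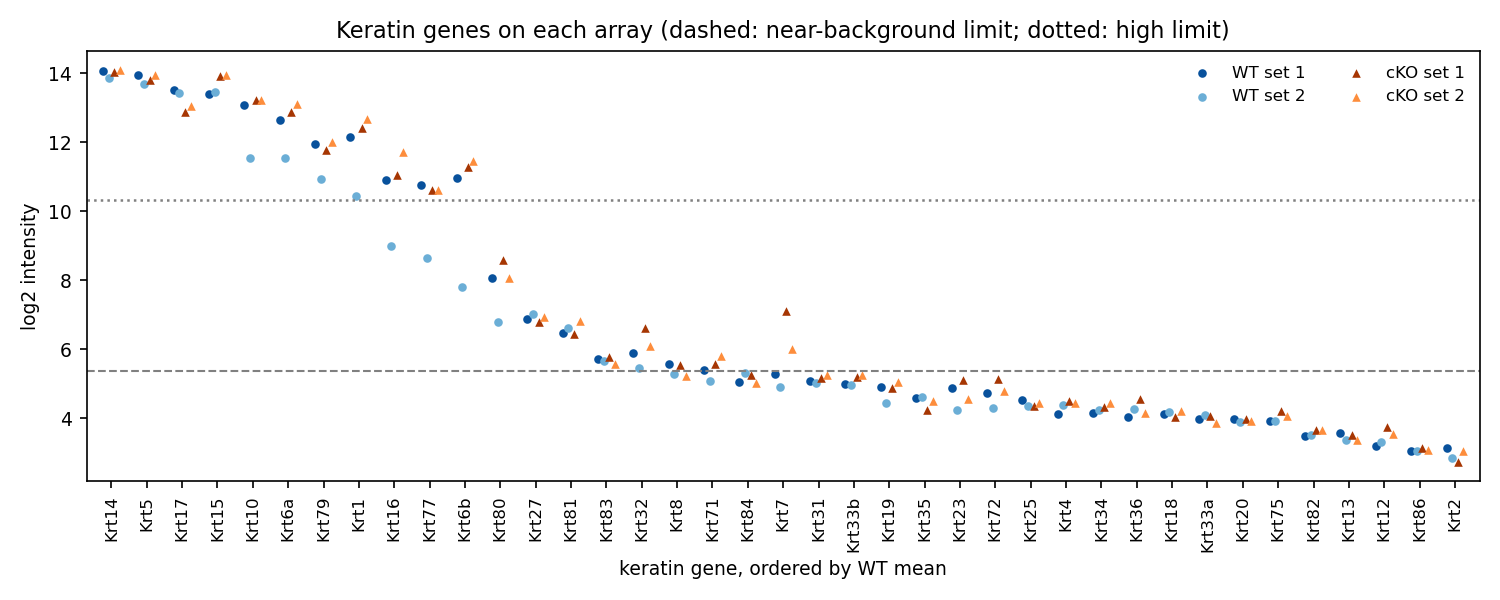
Log2 intensity (y axis) of the 39 keratin genes (x axis, ordered by WT mean) on the 4 arrays; circles are WT, triangles cKO, dashed and dotted lines are the near-background and high limits. Krt14, Krt5, Krt17 and Krt15 lie above 12 on all arrays, while the 8 keratins from Krt10 to Krt80 are lowest on the WT set 2 array, and the hair shaft and inner root sheath keratins lie near or below the lower limit.

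Of 18 ribosome genes 0 differed by 2-fold between the WT arrays, whereas all 5 suprabasal markers with a WT array above the limit did. The letters before the start sites are described beside this, and a link between them and the set difference was not tested. Shown are the 100 bases upstream of the RefSeq start (build GRCm38.p6), written 5′ to 3′ on the strand of the gene, with capitals for each TATAAA and each CG pair, for 2 suprabasal genes (Krt10 at chr11:99389365-99389464, minus strand, and Lor at chr3:92083143-92083242, minus strand) and the top 2 genes of the ranking (Rpl41 at chr10:128549169-128549268, minus strand, and Tpt1 at chr14:75845156-75845255, plus strand).
Krt10: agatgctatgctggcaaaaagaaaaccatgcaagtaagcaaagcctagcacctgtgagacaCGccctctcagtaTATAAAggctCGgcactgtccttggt
Lor: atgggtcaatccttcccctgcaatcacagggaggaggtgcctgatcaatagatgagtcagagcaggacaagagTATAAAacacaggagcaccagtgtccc
Rpl41: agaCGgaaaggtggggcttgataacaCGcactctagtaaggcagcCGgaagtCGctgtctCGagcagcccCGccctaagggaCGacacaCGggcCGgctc
Tpt1: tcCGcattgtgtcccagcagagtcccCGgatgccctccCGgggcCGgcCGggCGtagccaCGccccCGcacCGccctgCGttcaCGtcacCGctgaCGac
A TATAAA began 26 bases before the start in Krt10 and 27 in Lor, and neither Rpl41 nor Tpt1 held one there. Among the 7938 ranked genes with 1 promoter entry, 3.19% held TATAAA on the gene's own strand beginning 40 to 20 bases before the start. It was found in 4 of 6 suprabasal genes, 8 of 24 keratins and 0 of 12 ribosome genes. Of the basal and follicle keratins it was found in 3 of 6 type I and 0 of 7 type II genes, and of the hair shaft keratins in 3 of 7. On WT set 2, 6 of 8 type II and 2 of 5 type I keratins with a WT array above the limit were at least 2-fold lower. These keratins are not the same sets as those with 1 promoter entry. By class it was found in 2.60% of high, 1.23% of middle and 6.38% of near-background genes. CG, which reads the same on both strands and does not overlap TATAAA, had a median count in 250 upstream bases of 20 in the ribosome list, 1 in the suprabasal list and 14 over all genes. The medians by class were 18 for high, 17 for middle and 5 for near-background genes. A match describes the letters only, and other start sites of these genes were not analysed here.

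Adhesion genes of the basal cell to basement membrane contact were mostly strong or intermediate. Of 25 hemidesmosome and basement membrane genes, 5 were high, 18 in the middle and 2 near background. Col17a1, the transmembrane collagen of hemidesmosomes, read 12.27 and 12.11, Dst, a plakin linker, read 11.45 and 11.87, and the tetraspanin gene Cd151 read 11.51 and 11.27. The laminin-332 chain genes Lama3 (10.26 and 10.67) and Lamb3 (10.07 and 9.82) lay close to the high limit. The exceptions were the nidogen genes Nid1, at 5.43 and 4.91, and Nid2, at 3.26 and 3.23. Of 21 integrins, 2 were high (9.5%, near the 10% of all genes) and 6 in the middle. The other 13 were near background (61.9%, against 35.6% of all genes). Besides Itga6, Itgav, which pairs with several β chains, was high at 10.55 and 10.60. Itgb1 read 9.29 and 9.74, the α6 partner Itgb4 9.38 and 8.86, Itgb5 9.50 and 9.05 and Itga3 8.26 and 8.07. The leukocyte integrin genes Itgb2 (3.69 and 3.55), Itgam (3.50 and 3.47) and Itga4 (3.49 and 3.61) were near background.

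Genes of cell-cell contacts were also strong. Of 26 adherens, tight and gap junction genes 9 were high and 4 near background, and of 11 desmosome genes 3 were high and 2 near background. Gja1, which encodes the gap junction protein connexin 43, read 13.16 and 13.28, and Ctnnb1, the junction and WNT signalling protein β-catenin, read 13.17 and 13.06. Cdh1, E-cadherin, read 12.14 and 11.90, and the epithelial adhesion gene Epcam 12.07 and 12.20. The plakin gene Dsp read 13.11 and 13.05 and the p63 target Perp 13.44 and 13.13, whereas Dsc1, a desmocollin of upper epidermal layers, read 3.93 and 3.60. Cdh2, N-cadherin, was near background at 3.06 and 3.17. Of all 83 adhesion genes, the tight junction gene Cldn4 was the only one to differ by 2-fold between the WT arrays on the probe set used, at 6.00 and 4.79. Another probe set of Dst differed as much, at 9.98 and 11.14.

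Transcription factors known from the bulge were all above background. Of 19 such factors, 8 were high, 11 in the middle and 0 near background. Sox4, an SRY-box factor, read 12.49 and 12.54, the nuclear factor I genes Nfix 11.83 and 11.52 and Nfib 11.14 and 11.84, and the vitamin D receptor gene Vdr 11.65 and 11.56. Tbx1 itself read 10.53 and 10.37 in WT (10.45 ± 0.11, SD, n = 2) and 9.54 and 8.88 in cKO. The Tbx1 difference of -1.24 (SE 0.25) did not pass limma's test (adjusted p = 0.172), though it did with the set as a block (0.0424). The sources used here do not say which exons were deleted, so it is not known whether the probe set lies in them. Hes1, a Notch target, read 10.17 and 10.39, Runx1 9.48 and 9.81 and Nfatc1, a factor of stem cell quiescence, 8.74 and 8.67. The lowest of the list were Gata6 (6.02 and 5.82) and Sox21 (6.29 and 5.79). On the probe sets used, no member differed by 2-fold between the WT arrays. Other probe sets did for some members, such as Nfib (6.03 and 8.75), Foxp1 (4.96 and 7.68) and Runx1 (6.38 and 7.53), each higher on WT set 2.

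Factors of the hair germ and matrix were weaker, and factors of other lineages weakest. Of 14 germ and matrix factors, 1 was high, 6 in the middle and 7 near background. The Hedgehog effector genes Gli2 and Gli1 led with 10.44 and 10.30, and 9.44 and 9.35. Lef1, the WNT effector of the matrix, read 3.59 and 3.59, Foxn1, a hair shaft differentiation factor, 3.85 and 3.52, and Sox2, which marks dermal papilla and Merkel cells, 3.02 and 2.82. Of 23 factors of muscle, nerve, blood, liver, pancreas and germ line, 22 were near background, and Sox10, a neural crest factor, lay at the limit with 5.46 and 5.33. Epidermal factors spanned the range, with 5 of 24 high, 14 in the middle and 5 near background. Trp63, the master factor of stratified epithelia, read 12.24 and 12.34, Cebpd 12.56 and 12.54 and Klf4, a barrier factor, 12.78 and 12.04. Ovol1 (6.98 and 5.78) and Pou3f1 (8.82 and 7.51), both factors of differentiating keratinocytes, were at least 2-fold lower on WT set 2.

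The immediate early factors formed the strongest group of transcription factors. Of 21, 12 were high, 9 in the middle and 0 near background, with a median of 10.70 against 6.92 over all genes. Fos read 13.94 and 13.71, Egr1 13.77 and 13.45, Atf3 12.94 and 12.69, Nr4a1 12.73 and 12.24 and Jun 12.41 and 11.95. These genes respond quickly to growth signals and to tissue handling, and their levels in undisturbed follicles were not measured here. Over the 8130 genes with a WT array above the limit, 4881 read lower on WT set 2 than on WT set 1, and 4533 read lower on cKO set 2 than on cKO set 1. Of the 21 immediate early factors 18 read lower on WT set 2, among them Fosb (11.04 and 9.91) and Klf2 (8.28 and 6.78). In cKO 7 of the 21 read lower on set 2. Of the 101 transcription factors 26 were high, and 68 entered limma's test between cKO and WT. None of these 68 passed without the block, where 7 of 8031 genes passed in all.

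**Figure D4:**
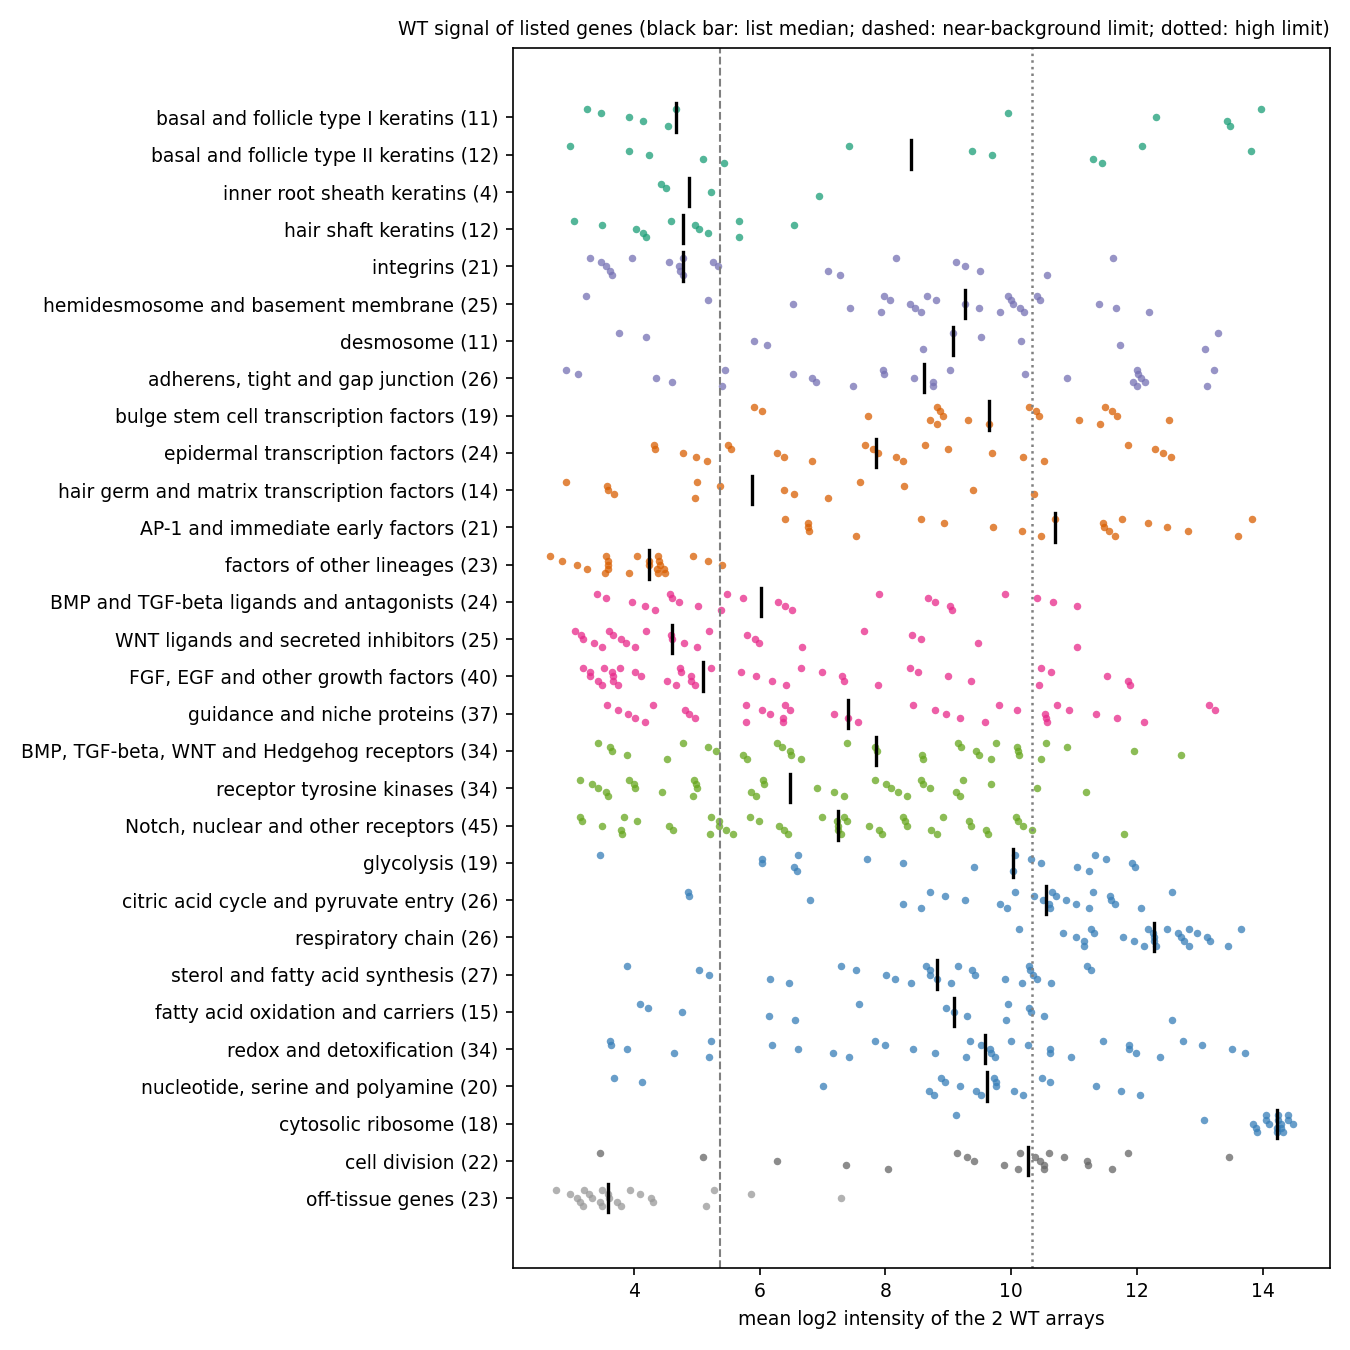
Mean log2 intensity of the 2 WT arrays (x axis) for every measured gene of the lists (rows, with the number of genes in brackets); the black bar is the list median, the dashed line the near-background limit and the dotted line the high limit. The lists of ribosome, respiratory chain, immediate early and citric acid cycle genes have medians above the high limit, while factors of other lineages, hair shaft keratins, integrins, WNT ligands and off-tissue genes are among those with medians below the lower limit.

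Ligands, secreted or membrane-bound, were weaker than adhesion genes as a group, with 20 of 126 high, 51 in the middle and 55 near background. Guidance and niche proteins made up 10 of the 20. Postn, a matricellular protein, read 12.85 and 13.64, the lipid carrier gene Apoe 13.24 and 13.06, Igfbp7, a binding protein of insulin-like growth factors, 12.26 and 11.95, and the chemokine gene Cxcl14 11.74 and 11.62. Of BMP and TGF-beta proteins, the strongest were inhibitors or binding proteins. Sostdc1, an antagonist of BMP and WNT, read 11.18 and 10.90, the activin antagonist gene Fst 10.51 and 10.83 and the latent TGF-beta binding gene Ltbp3 10.41 and 10.43. Noggin (Nog, 3.46 and 3.66), chordin (Chrd, 4.08 and 4.27) and Bmp5 (3.42 and 3.42) were near background.

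WNT ligands were low and a WNT inhibitor was high. Of 25 genes of the list, only Sfrp1, a secreted frizzled-related inhibitor, was high, at 10.72 and 11.39, and its 3 other probe sets averaged 8.99 to 9.42. Dkk3 read 9.29 and 9.67. The ligand genes Wnt7b (8.80 and 8.34), Wnt4 (8.60 and 8.26) and Wnt10a (7.84 and 7.47) were in the middle, and 16 genes, among them Wnt1 at 3.16 and 3.17, were near background. Of 40 growth factor genes, 6 were high and 21 near background. The matrix-cell signalling genes Ccn2 (11.98 and 11.80) and Ccn1 (11.96 and 11.09), the EGF family member Epgn (11.65 and 12.07), Pdgfa, the platelet-derived growth factor A (10.49 and 10.44), and Kitl, the ligand of melanocyte KIT (10.29 and 10.97), were high. Sonic hedgehog (Shh), a signal of growing follicles, read 3.22 and 3.15, and Fgf10, a dermal growth factor, 3.37 and 3.25. Angptl4, a secreted lipase inhibitor, read 9.86 on WT set 1 and 11.03 on WT set 2, with 10.08 and 10.96 in cKO. Hbegf, an EGF family ligand, read 9.92 and 8.79 in WT.

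Receptors were mostly of intermediate signal. Of 113, 9 were high, 70 in the middle and 34 near background. Among the high ones, Gas1, a Hedgehog co-receptor, read 12.78 and 12.61, and Ptch1, the receptor and a target of the pathway, 12.08 and 11.83. The Hedgehog transducer Smo lay in the middle class at 10.43 and 9.76. Lrig1, a brake on EGF receptors, read 11.93 and 11.66, Ddr1, a collagen receptor kinase, 11.43 and 10.97, Fgfr2 10.27 and 10.54 and the BMP receptor gene Bmpr1a 10.24 and 10.72. Notch1 read 10.58 and 10.09 and the WNT co-receptor kinase gene Ryk 10.60 and 10.50. Fzd7 and Fzd2, receptors for WNT, lay in the middle at 10.17 and 10.05, and 9.66 and 9.69. Near background were Kit (3.26 and 3.42), Erbb4 (3.02 and 3.27), the estrogen receptor gene Esr1 (3.04 and 3.24) and Bmpr1b (3.46 and 3.39). On the probe sets used, 2-fold differences between the WT arrays were found only for the oncostatin M receptor gene Osmr, at 8.98 and 10.27, and the TNF receptor gene Tnfrsf19, at 8.30 and 7.16. Of the 113 receptors 80 entered limma's test between cKO and WT, and none of these passed (7 of 8031 over all genes).

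Genes of protein synthesis and respiration took the top of the ranking. Ribosomal protein genes were 32 of the 40 strongest genes, led by Rpl41 at 14.57 on both WT arrays. The other 8 were Tpt1, Eef1a1, Lgals7 (the epithelial lectin galectin-7), Krt14, the chaperone gene Hspa8, Eef1b2, Tmsb10 and Naca. The largest difference between the WT arrays among these 40 was 0.21. Of 26 respiratory chain genes 25 were high, among them Cox6a1 (13.75 and 13.55) and Cox5b (13.45 and 13.45), and the lowest, Ndufs1, read 9.93 and 10.31. Signal near the top of the scale is open to saturation, and no saturation flags were analysed here.

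Other metabolic lists were spread over the classes. Of 26 genes of the citric acid cycle and pyruvate entry, 15 were high, with the malate dehydrogenase gene Mdh2 at 12.77 and 12.34, and 2 were near background, the pyruvate dehydrogenase kinase genes Pdk2 (5.01 and 4.74) and Pdk4 (4.80 and 4.91). Of 19 glycolysis genes 7 were high. Pgk1 read 12.04 and 11.90, the triose isomerase gene Tpi1 11.67 and 11.34 and the glucose transporter gene Slc2a1 11.53 and 11.13, whereas Slc16a3, a lactate exporter, read 3.50 and 3.43. In redox and detoxification 12 of 34 were high, led by the metallothionein genes Mt1 (13.60 and 13.85) and Mt2 (13.49 and 13.52), which are close in sequence, and Gpx1 (13.09 and 12.99). Cyp1a1 (3.60 and 3.65) and Aldh1a1 (3.61 and 3.67) were near background.

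Lipid genes were intermediate. Of 27 genes of sterol and fatty acid synthesis, 5 were high and 19 in the middle, with the desaturase gene Scd2 at 11.68 and 10.87 and the sterol synthesis gene Hmgcs1 at 11.33 and 11.09. Other probe sets of Scd2 read 7.86 and 7.38, and 5.36 and 8.05, the latter higher on WT set 2. Among the 25 genes of this list with a WT array above the limit, 23 read lower on WT set 2 (4881 of 8130 over all genes). Their median difference was -0.57 against -0.09 over all genes. In cKO 15 of the 25 read lower on set 2, near the share of all genes (4533 of 8130), with a median of -0.08. Fabp5, the epidermal fatty acid carrier, read 13.13 on WT set 1 and differed by -1.13 on WT set 2. The fatty acid oxidation gene Hadhb read 10.22 and 10.81, and Pparg, which drives fat and sebaceous differentiation, was near background at 4.34 and 4.11. Of 20 genes of nucleotide, serine and polyamine synthesis 5 were high, among them Rrm2 (12.15 and 11.95), a subunit of ribonucleotide reductase, and the serine synthesis gene Phgdh (11.82 and 11.67).

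Cell division genes were well above background on both WT arrays. Of 22, 11 were high, 9 in the middle and 2 near background. Pcna, the replication clamp, read 13.37 and 13.55, Top2a 11.60 and 12.12, Cdk1, the mitotic kinase, 11.22 and 11.23, and the helicase subunit gene Mcm6 11.66 and 11.53. The proliferation marker Mki67 read 10.68 on set 1, labelled quiescent, and 11.74 on set 2, labelled activated. On the probe sets used, Mki67 was the only member to differ by 2-fold. Of the 20 members with a WT array above the limit, 13 read lower on WT set 2 than on WT set 1, a share near that of all genes (4881 of 8130). The inhibitor genes Cdkn2a (3.33 and 3.60) and Cdkn1c (5.12 and 5.08) were near background. On the cKO arrays Mki67 read 10.14 and 10.26 and Pcna 13.05 and 13.09. None of the 20 cell division genes that entered limma's test passed (7 of 8031 over all genes). The adjusted p of this test was 0.317 for Mki67 and 0.357 for Pcna.

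Between the WT arrays, the genes that were lower on set 2 included suprabasal, cornified envelope and keratin genes. Of 8130 genes with a WT array above the limit, 138 (1.7%) were at least 2-fold higher on set 2 and 97 (1.19%) at least 2-fold lower, and with 1 array on each side these differences have no test. All 5 suprabasal markers with a WT array above the limit were at least 2-fold lower, as were 8 of 18 keratins, and 0 of those keratins was at least 2-fold higher. Between the cKO arrays 37 of the 8130 genes were at least 2-fold higher on set 2 (0.455%) and 49 at least 2-fold lower (0.603%), none of the 18 keratins among them. The summed linear intensity of the 8 measured suprabasal markers was 23261 on WT set 1 and 7647 on WT set 2. It was 25106 and 29479 on the cKO arrays, so the shortfall of the sum was seen on a single array. Of the same markers, Lor alone was also at least 2-fold lower on cKO set 2 (9.32 and 7.34 in cKO). The part that a different share of suprabasal cells had in these differences was not tested. Among these markers Ivl, involucrin, and Flg, filaggrin, were near background on both WT arrays.

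The cKO arrays, which share no array with WT, differed between sets in the same direction by at least 1.5-fold for 26 of the 138 higher and 21 of the 97 lower genes. They differed that much in the opposite direction for 5 and 17. Over all 8130 genes, the cKO arrays were at least 1.5-fold higher on set 2 for 170 (2.09%) and lower for 233 (2.87%). Genes of the cornified envelope, the protein shell of dead surface cells, were of both kinds. Lor, loricrin, read 9.01 and 5.65 in WT and 9.32 and 7.34 in cKO. Of 7 Lce1 genes, a tandem family of late envelope proteins with similar sequences, 6 were at least 2-fold lower on WT set 2, and all 6 were also at least 1.5-fold lower on cKO set 2, such as Lce1a2 with 8.50 and 5.61 in WT and 8.43 and 6.95 in cKO. Of 4 Sprr genes, envelope proteins of stressed epidermis, 3 were at least 2-fold lower on WT set 2 and 0 of these was lower on cKO set 2 by 1.5-fold, such as Sprr1b with 9.42 and 6.73 in WT and 10.02 and 9.90 in cKO. The Lce1 and Sprr families were singled out after their values were seen.

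Outside these families, Ehd3, a membrane trafficking gene, read 7.85 and 5.40 in WT and 8.24 and 5.37 in cKO, which had the smallest adjusted p of limma's test of set 2 against set 1 over all 4 arrays (0.274). That test called 0 of 8031 genes, with 230 at an unadjusted p under 0.05, and with the genotype in the model, which is the same as the replicate block, it called 1. In the other direction, Nedd4, a ubiquitin ligase gene, read 11.05 and 12.48 in WT and 10.58 and 12.21 in cKO, Atrx, a chromatin remodeller, 8.13 and 10.06 in WT and 7.58 and 8.72 in cKO, and the mitotic motor gene Cenpe 7.88 and 9.43 in WT and 6.25 and 7.40 in cKO. Further genes higher on WT set 2 were of other kinds. Thoc2, an mRNA export gene, read 7.92 and 9.58 in WT and 7.76 and 8.35 in cKO. Smc6, a chromosome maintenance gene, read 9.67 and 11.07 in WT and 8.95 and 9.87 in cKO. For Ttc14, with 5.85 and 7.78 in WT, the cKO arrays read 6.00 and 6.02, so the difference was not shared.

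**Figure D5:**
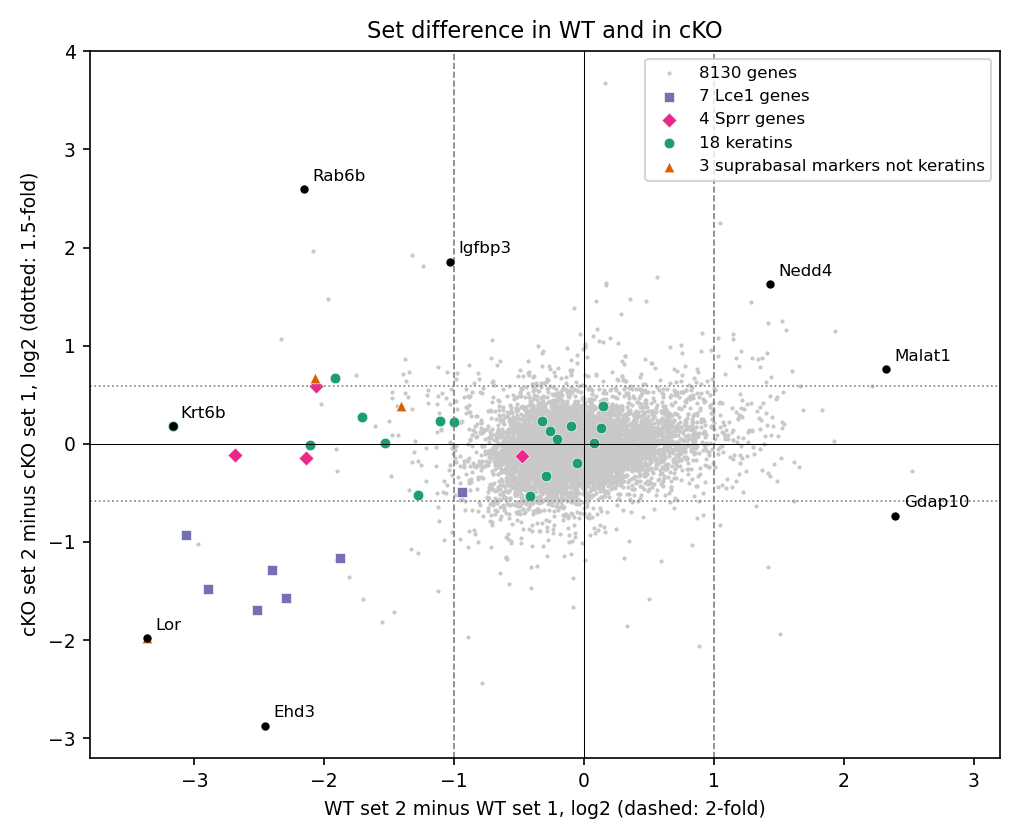
Set 2 minus set 1 difference in log2 intensity for WT (x axis) and cKO (y axis) of 8130 genes with a WT array above the near-background limit; dashed lines mark 2-fold in WT and dotted lines 1.5-fold in cKO. Lce1 genes and Lor lie at the lower left, lower on set 2 in both genotypes, while most keratins and Sprr genes with large negative values in WT lie within or close to 1.5-fold in cKO.

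Most of the WT profile was shared with the cKO cells. Of the 40 strongest genes in WT, 35 were also among the 40 strongest by the cKO mean, and of the 1240 high genes 1125 were among the top 1240. As many of the top 40, 35, were shared by the WT arrays ranked one by one, as were 1114 of the top 1240. limma called 7 of 8031 genes between cKO and WT, 2 higher (0.0249%) and 5 lower (0.0623%) in cKO, and with the set as a replicate block 83 (1.03%). Calls were made for 0 of 1239 tested genes of the high class and 6 of 6693 of the middle class. With 7 calls among 8031 genes, these counts are too small to compare the classes. The 5 genes called lower, all of the middle class, also entered the test only through their WT values. Genes near background in WT entered the test only where the cKO arrays raised their mean, so the 1 call among 99 of them, Cck, is no measure of that class.

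The 5 genes that fell in cKO were in the WT middle class, between percentile 56.2 for Srgn and 89.6 for Fabp4. Fabp4 fell by 6.55 on the log2 scale (SE 0.27, limma adjusted p = 0.00305), Selp by 4.24 (SE 0.20, 0.00408), Plvap by 3.79 (SE 0.21, 0.00652), Srgn by 2.79 (SE 0.16, 0.00652) and Aqp1 by 4.55 (SE 0.29, 0.00782). All but Srgn, a proteoglycan gene, are on the endothelial list, of which 5 genes passed the filter on low values and 4 were called lower. These 4, and Srgn at 4.78 and 4.62, read below the filter limit of 5.40 on both cKO arrays. All 5 genes therefore passed the filter only through their WT values. The count of 4 of 5 is therefore no measure of the endothelial list. Egfl7, an endothelial secreted protein, was tested and not called, at 7.43 and 6.68 in WT and 6.70 and 6.49 in cKO (adjusted p = 0.494). Tsc22d3, a glucocorticoid response gene, rose from 8.60 and 8.60 in WT to 10.51 and 10.29 in cKO (limma adjusted p = 0.0479). This call was lost with no filter on dim genes (0.0596), with a filter at percentile 60 (0.104), with averaged probe sets (0.0784) and with any array left out (0.074 to 0.245). Cck, cholecystokinin, rose from 5.05 and 4.77, near background in WT, to 7.25 and 7.17 (0.0189). Without the WT set 2 array limma called 2 genes, and Cck (adjusted p = 0.155), Fabp4 (0.0692), Selp (0.0754), Srgn and Tsc22d3 were not among them. Cck, Selp, Srgn and Tsc22d3 were also not called without WT set 1, nor Cck and Tsc22d3 without cKO set 1. Without the cKO set 2 array limma called 16 genes.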

How the data were processed

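Biotin-labelled targets were made from 2 µg of total RNA of the sorted cells for Affymetrix arrays, according to the labels. The authors deposited linear intensity values of 22690 probe sets, and RMA is named in the submitters' processing notes, without a version. Intensities ran from 5.29 to 25561, with medians of log2 intensity from 6.36 to 6.38 on the 4 arrays. log2 was computed from them. RMA evens out the arrays' distributions and compresses folds of weak genes, and an array gives no count or depth.

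Names came from GEO's platform annotation. Of the probe sets 20380 had 1 symbol, 691 several, 1555 none, and 64 were controls. Of the former, 20351 matched a RefSeq table (GRCm38.p6). Of 12393 genes, 4956 had several probe sets, and the one with the highest mean over 4 arrays was used. Of the 849 listed genes 752 were measured, and for 102 another probe set was near background where the one used was not. The files name no genome build. Promoter entries were found for 9887 genes.

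Genotypes and sets were compared with limma 3.58.1 in R 4.3.3 (lmFit, eBayes, all 4 arrays, Benjamini-Hochberg, threshold 0.05), without genes below log2 5.40 on average, Xist and Y-linked genes. The fit was tested on simulated data. Each set holds a WT and a cKO array and has a description of its own. No label ties same-numbered arrays to a shared litter or day, so the fit with the set as a replicate block is an alternative. Further alternatives changed class limits, probe set choice, fold, filter, threshold and variance model, or left out an array.

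Members and lists were chosen with earlier results of these data known. Named were the bulge markers, the top 40 genes, keratins, up to 6 strongest, 3 weakest and 3 most different members per list, the genes of largest set difference, and genes that passed limma. Any other gene, such as those next to a class limit, was named after its values were seen.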

Additional observations from a re-analysis of the deposited data

Results flagged for a closer look

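For 5 genes higher and 17 genes lower on WT set 2 by at least 2-fold, the cKO pair differed in the opposite direction by at least 1.5-fold. Given here are the 8 of them that are on the lists or among the named genes of large set difference. With a single array per genotype and set, the difference between the pairs was not tested. Values are set 2 minus set 1 on the log2 scale. In the epidermis, Krt16, a keratin of stressed keratinocytes, differed by -1.92 in WT and 0.67 in cKO, Calm4, a calmodulin-like gene of suprabasal cells, by -2.07 and 0.67, and 2610528A11Rik by -2.33 and 1.07. Of secreted signals, the EGF family ligand gene Hbegf differed by -1.13 in WT and 0.79 in cKO, the alarm cytokine gene Tslp by -1.97 and 1.48, and Igfbp3, a binding protein of insulin-like growth factors, by -1.04 and 1.86. Rab6b, a vesicle transport gene, differed by -2.15 and 2.60. Gdap10, the only one of these 8 that was higher on WT set 2, differed by 2.40 in WT and -0.73 in cKO. Tslp (5.87 and 3.90) and Rab6b (6.27 and 4.12) were near background by their WT means.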

How the results depend on the processing

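Of the values recomputed, 128 summary values stayed close to the reported one and 28 moved, and 55 values of single genes kept their call and 15 lost it; none reversed. The cause of each shift was not tested beyond what the setting itself changes. With the lower limit at percentile 30, near-background counts were 14 keratins, 12 adhesion genes, 35 ligands, 20 receptors and 9 metabolic genes. With high as the top 5%, 8 ligands and 3 receptors were high, and 4 receptors when a gene's probe sets were averaged. Pearson's r of the WT arrays was 0.989 with such averages and with every probe set (97.3% within 2-fold), and 0.974 above the limit (97.2%). At 1.5-fold, 587 genes were higher and 480 lower on WT set 2, 47 and 67 of them shared by cKO, and at 3-fold 13, 29, 5 and 12. Between cKO and WT, 39 genes were called at a threshold of 0.10, 28 with a variance trend and robust fit, 0 with a filter at percentile 60 (816 at an unadjusted p under 0.05), 83 with the set as a replicate block, and 2 to 16 with each array left out, where the lone array of a group is assumed to vary like the others. Of the 7 genes called in the main fit, only Tsc22d3 had a value with the filter at percentile 60. The 0 calls there therefore do not show that the differences of the other called genes failed. Those genes did not enter the tally of kept and lost calls at that setting. For set 2 against set 1 the replicate block gave 1 call. Deviations of same-numbered arrays from the genotype means correlated at r = 0.182 over 8130 genes, which with 2 pairs does not settle pairing. Leaving out an array gave 8 to 11 high keratins. Probe affinity, the lack of detection calls and 2 arrays limit all levels here.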
